A study of Homo sapiens with 7 samples.

Results

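The HOX genes of the clusters A to D were examined in chromatin accessibility profiles of human neurons. The set holds every protein-coding gene whose RefSeq symbol is HOXA, HOXB, HOXC or HOXD followed by a number, which gave 39 genes among 19974 protein-coding genes on chromosomes 1 to 22 and X. There are 11 HOXA genes on chromosome 7, 10 HOXB genes on chromosome 17, 9 HOXC genes on chromosome 12 and 9 HOXD genes on chromosome 2. Membership followed from the symbol alone, though the set was chosen with earlier results of these data known. The cells were wild-type LUHMES cells, an established human mesencephalic line, kept for 6 days in differentiation medium with tetracycline, dibutyryl cAMP and GDNF, and labelled as dopaminergic neurons. The 4 stressed libraries (differentiations 6, 7, 8 and 9) received antimycin A at 25 µM, which blocks respiratory complex III, and oligomycin at 10 µM, which blocks the mitochondrial ATP synthase, for 8 hours. The 3 vehicle libraries (differentiations 6, 7 and 8) received DMSO. All libraries come from a single cell line, so the p-values measure the spread between batches of that line.

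HOX genes encode homeodomain transcription factors that give cells of the body axis their position. Within a cluster the order of the genes follows the order of their expression, with low paralogue numbers used anteriorly, in the hindbrain, and high numbers posteriorly, in the lumbar cord, limbs and genital tract. Midbrain and forebrain lie in front of the HOX domain, and there the clusters are known to be held silent by Polycomb complexes.

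ATAC-seq reads out accessible DNA through the cuts of the Tn5 transposase. Each library came with its own list of accessible regions, and the lists held 188570, 248939, 55575 and 53092 peaks in stressed 6, 7, 8 and 9, against 53440, 32874 and 159950 in vehicle 6, 7 and 8. The lists were compared in full and at equal size, where each library kept as many of its regions of highest fold enrichment as the list of vehicle 7 held on the chromosomes used. Fold enrichment is the authors' value at the summit of a region over a background that was constant within a library. That background, recovered from the folds as a measure of relative depth, was 0.816 to 5.99 fragments under stress and 0.492 to 1.43 under vehicle. The weakest region of the equal-size lists had a fold of 4.40 to 8.81 in stressed and 3.72 to 9.04 in vehicle libraries. A gene was counted as accessible at an end when a region lay within 1000 bp of either of its ends, and a gene without such a region was not necessarily closed.

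The promoters on which the results turn are printed from RefSeq (GRCh38.p14, the build of the region lists), 250 bases before to 50 after a listed start, with each CG dinucleotide in capitals. The first 3 lay in regions of the equal-size lists, in 4 stressed and 0 vehicle libraries for HOXA13, 3 and 2 for HOXA3, and 2 and 2 for HOXD8. The other 3 lay in no region of any library, deposited lists included. HOXC4 is shown because its start is shared with HOXC5 and HOXC6, HOXA4 because it is rich in CG without a region, and HOXB1 as the first gene of a cluster almost without regions.
HOXA13 promoter, chr7:27200042-27200341, minus strand: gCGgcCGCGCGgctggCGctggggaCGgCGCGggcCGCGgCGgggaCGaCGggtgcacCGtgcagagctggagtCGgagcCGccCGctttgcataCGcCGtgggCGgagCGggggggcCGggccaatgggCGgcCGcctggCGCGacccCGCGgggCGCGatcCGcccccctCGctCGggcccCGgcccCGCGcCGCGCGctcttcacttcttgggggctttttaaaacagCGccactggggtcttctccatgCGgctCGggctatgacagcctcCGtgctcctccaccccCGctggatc
HOXA3 promoter, chr7:27150901-27151200, minus strand: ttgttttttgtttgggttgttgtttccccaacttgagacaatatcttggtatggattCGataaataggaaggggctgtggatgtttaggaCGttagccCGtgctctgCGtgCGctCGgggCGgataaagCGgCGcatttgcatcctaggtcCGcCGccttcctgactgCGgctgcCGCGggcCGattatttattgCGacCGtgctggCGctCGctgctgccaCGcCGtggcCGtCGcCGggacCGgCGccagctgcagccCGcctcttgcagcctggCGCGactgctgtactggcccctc
HOXD8 promoter, chr2:176129455-176129754, plus strand: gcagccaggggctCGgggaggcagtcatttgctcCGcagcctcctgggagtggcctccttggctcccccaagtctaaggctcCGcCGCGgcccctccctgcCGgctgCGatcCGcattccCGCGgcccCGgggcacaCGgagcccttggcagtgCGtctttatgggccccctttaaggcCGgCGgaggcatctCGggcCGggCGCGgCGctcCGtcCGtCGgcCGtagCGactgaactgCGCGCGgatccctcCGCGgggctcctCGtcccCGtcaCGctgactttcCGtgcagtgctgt
HOXC4 promoter, chr12:54016638-54016937, plus strand: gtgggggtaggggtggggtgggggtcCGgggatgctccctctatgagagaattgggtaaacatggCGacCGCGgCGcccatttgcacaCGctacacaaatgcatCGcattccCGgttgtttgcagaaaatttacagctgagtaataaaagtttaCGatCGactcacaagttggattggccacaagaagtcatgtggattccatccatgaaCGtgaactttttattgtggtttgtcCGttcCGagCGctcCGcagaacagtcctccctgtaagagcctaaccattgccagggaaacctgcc
HOXA4 promoter, chr7:27130708-27131007, minus strand: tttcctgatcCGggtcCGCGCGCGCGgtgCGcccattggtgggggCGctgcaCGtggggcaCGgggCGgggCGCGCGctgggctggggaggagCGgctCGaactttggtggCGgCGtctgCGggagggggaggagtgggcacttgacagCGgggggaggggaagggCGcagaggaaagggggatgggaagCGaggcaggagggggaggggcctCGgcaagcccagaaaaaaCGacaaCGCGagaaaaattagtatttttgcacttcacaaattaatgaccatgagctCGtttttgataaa
HOXB1 promoter, chr17:48530962-48531261, minus strand: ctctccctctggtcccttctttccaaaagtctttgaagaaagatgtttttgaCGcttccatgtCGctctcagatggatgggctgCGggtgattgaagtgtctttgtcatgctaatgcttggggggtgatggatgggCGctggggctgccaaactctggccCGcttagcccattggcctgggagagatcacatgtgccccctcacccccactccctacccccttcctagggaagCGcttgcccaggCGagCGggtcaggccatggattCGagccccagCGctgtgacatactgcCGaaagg

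The HOX genes had few accessible ends in either condition. In the equal-size lists, 4, 6, 2 and 8 of the 39 HOX genes had a gene-end region in stressed 6, 7, 8 and 9, against 5, 4 and 3 in vehicle 6, 7 and 8. This was 5.0 ± 2.58 genes, or 12.8% of the set, under stress (SD, n = 4), against 4.0 ± 1.0 genes, or 10.3%, under vehicle (SD, n = 3), and the ranges overlapped. Of all protein-coding genes, 61.6%, 65%, 60.5% and 62.6% had such a region in the stressed libraries, against 54%, 55.4% and 58.9% in the vehicle libraries. Neighbouring HOX genes can share a region, and the HOX genes counted rested on 4, 6, 2 and 6 separate regions in the stressed libraries, against 3, 3 and 3 in the vehicle libraries.

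No HOX gene was accessible at an end in all 7 equal-size lists, where 46.5% of all genes were. HOXA3, which patterns the pharyngeal arches, thymus and parathyroid in mice, was present in 6 libraries, HOXD8 in 5 and HOXA13, the last gene of its cluster and a regulator of limb and genital tract development, in 4. These were the only 3 of the 39 genes in at least 4 libraries, against 60.7% of all genes. Another 10 HOX genes appeared in 1 to 3 libraries, which makes 13 of 39 in at least 1 library, against 70.4% of all genes. The remaining 26 appeared in none, or 66.7% of the set against 29.6% of all genes.

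**Figure D1:**
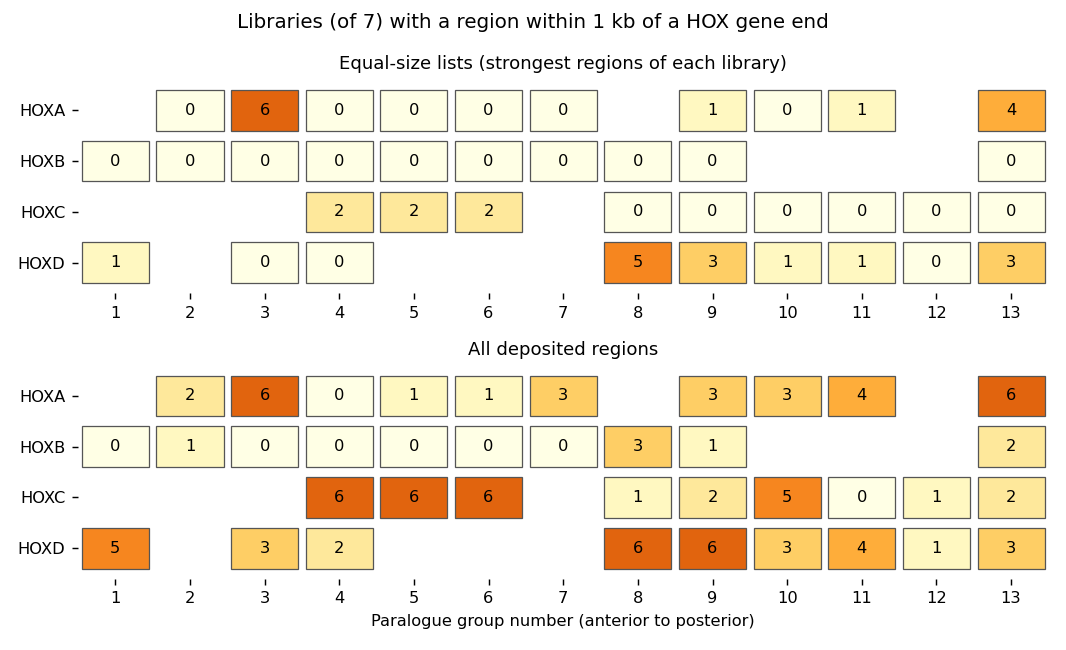
Number of the 7 libraries with a region within 1 kb of a gene end, for each HOX gene by cluster (vertical) and paralogue group (horizontal, anterior to posterior), in the equal-size lists (upper) and all deposited regions (lower); a missing box is a paralogue that the cluster lacks or that is not drawn. HOXA3, HOXD8 and HOXA13 reached 6, 5 and 4 libraries in the upper grid, the HOXB row was 0 throughout there, and no box reached 7 in either grid.

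The full lists held gene-end regions of many more HOX genes, in the libraries with long lists. In the deposited lists, 24, 29, 8 and 10 HOX genes had a gene-end region in stressed 6, 7, 8 and 9 (17.8 ± 10.3, or 45.5% of the set; SD, n = 4), against 8, 4 and 17 in vehicle 6, 7 and 8 (9.67 ± 6.66, or 24.8%; SD, n = 3). The high counts came from stressed 6, stressed 7 and vehicle 8, the libraries with the longest lists, and the other 4 libraries stayed at 10 or below. The same lists reached 78.2%, 81.3%, 65.6% and 67.3% of all genes in the stressed libraries, against 58.9%, 55.4% and 76.5% in the vehicle libraries. At full length 31 of the 39 genes had a region in at least 1 library, against 84% of all genes, 11 in at least 4 libraries, against 70.6%, and again none in all 7, against 49.8%. The 8 genes without a region in any deposited list were HOXA4, HOXB1, HOXB3, HOXB4, HOXB5, HOXB6, HOXB7 and HOXC11.

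**Figure D2:**
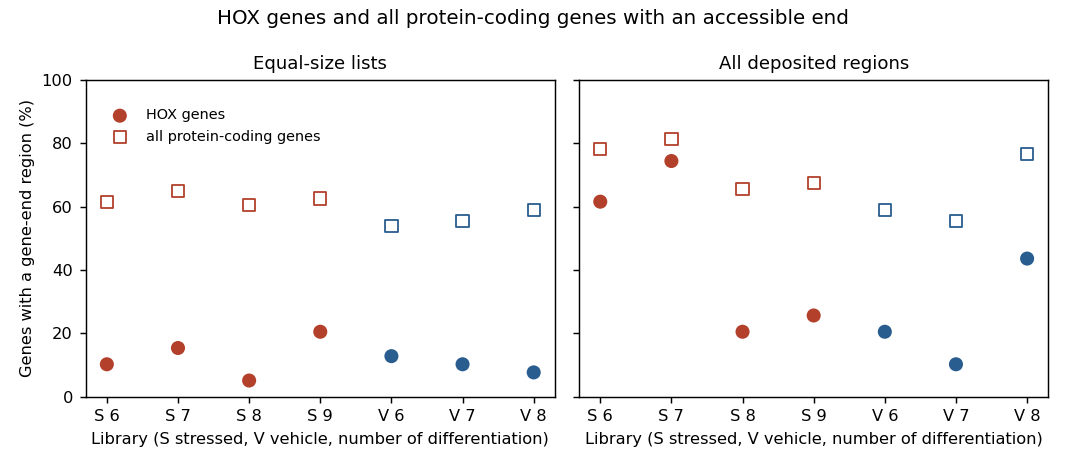
Share of genes (%) with a region within 1 kb of an end in each library (S stressed, V vehicle), for the 39 HOX genes (filled circles) and all protein-coding genes (open squares), in the equal-size lists (left) and all deposited regions (right). HOX genes lay between 5.13% and 20.5% in the left panel, below the squares in each library, and reached 61.5%, 74.4% and 43.6% in stressed 6, stressed 7 and vehicle 8 in the right panel.

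The HOX gene-end regions ranked below those of genes in general. Ranked by fold within each deposited list, where 100 is the strongest, the strongest gene-end region of the HOX genes had a median percentile of 64.3, 74.7, 12.3 and 54.3 in stressed 6, 7, 8 and 9, against 47.0, 10.4 and 54.5 in vehicle 6, 7 and 8. Over all genes with a region the medians were 94.0, 95.9, 84.4 and 82.8 under stress, against 83.1, 75.9 and 92.1 under vehicle. The HOX median lay below that of all genes in each of the 7 libraries.

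The 4 clusters differed in how much they held. Windows were drawn from the first to the last gene with 50 kb added on both sides, and the union of the equal-size lists gave 23 regions in them, 9 in HOXA, 10 in HOXD, 3 in HOXC and 1 in HOXB. Of the 23, 17 lay between the outer gene ends and 10 within 1 kb of a HOX gene end. Only 1 was present in all 7 libraries, or 4.35%, against 22.9% of the 62507 regions of the genome, and 9 were present in a single library (38% in the genome). Of those 9, 6 came from vehicle 7, the library with the lowest entry fold. The deposited lists gave 135 regions in the windows, of which 2 were in all 7 libraries (4.8% in the genome), both in HOXA, and 69 in a single library (55% in the genome).

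**Figure D3:**
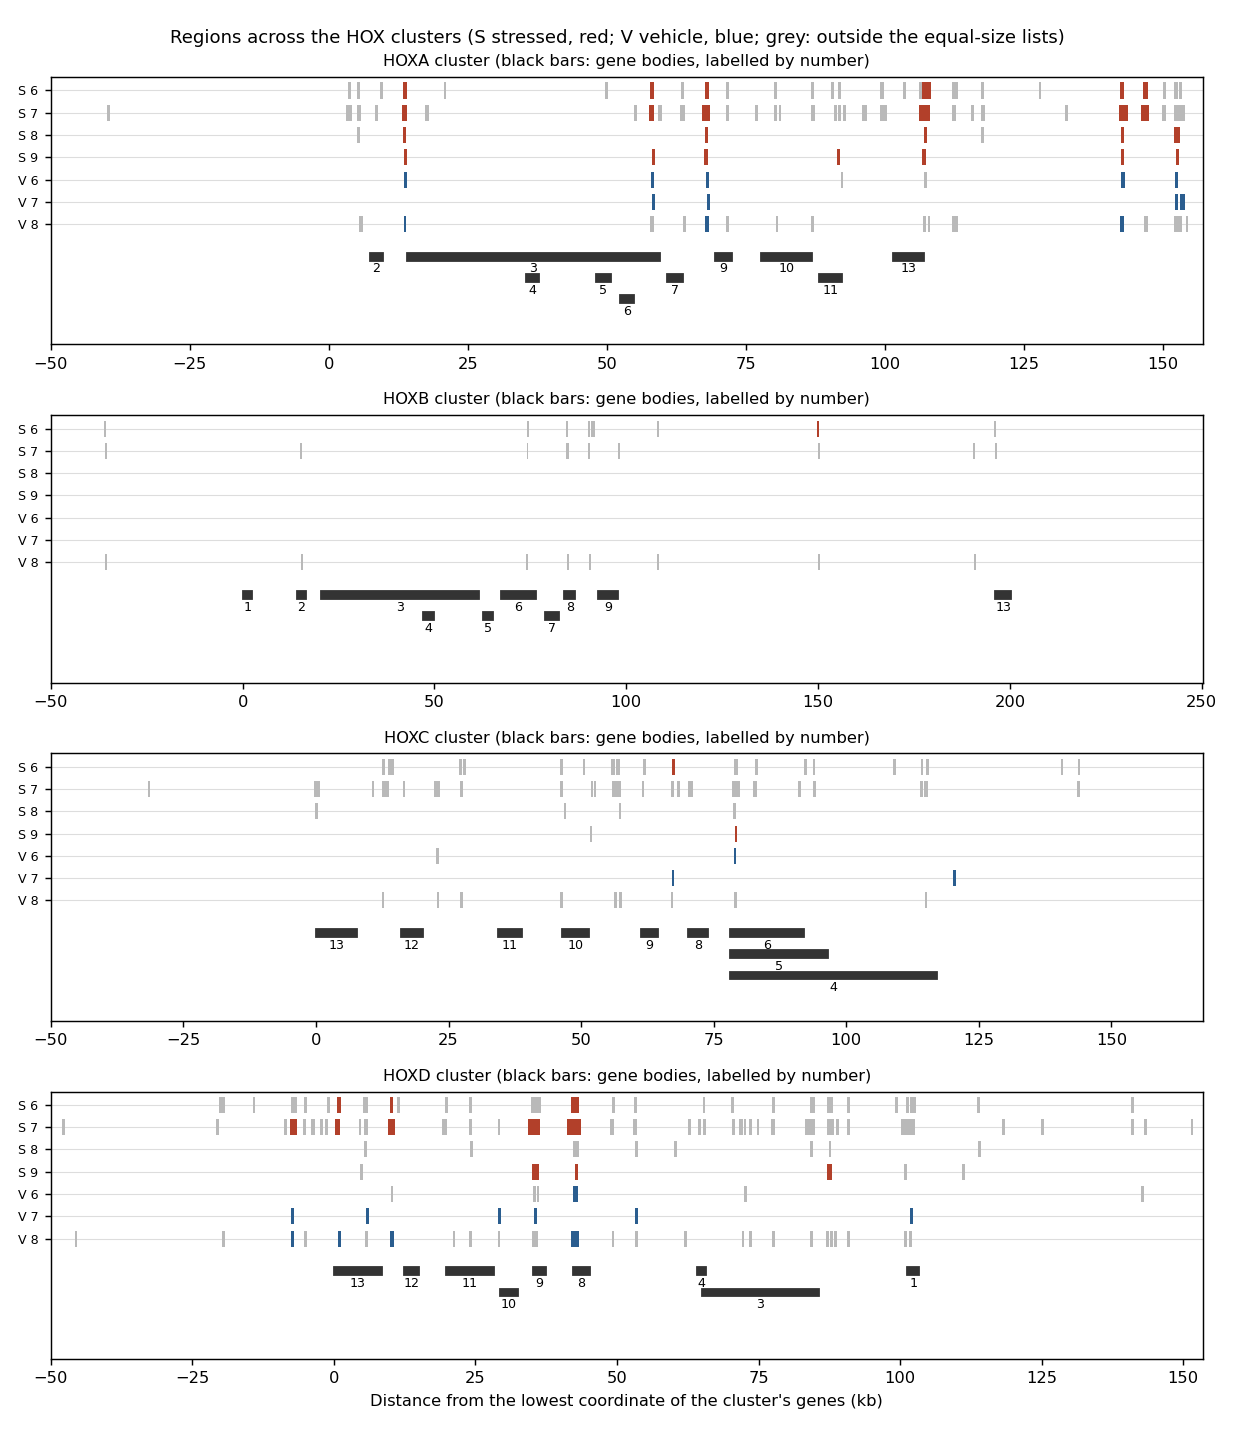
Regions of each library (S stressed, V vehicle) along the 4 HOX windows, in kb from the lowest coordinate of the cluster's genes; coloured bars (red stressed, blue vehicle) are in the equal-size lists, grey bars are weaker deposited regions, and black bars are the bodies of the genes drawn, with their paralogue numbers. HOXA holds recurrent coloured bars near genes 3, 7, 9 and 13, HOXD near genes 8 and 9, and HOXB a single coloured bar, in stressed 6.

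HOXA was denser in regions than the genome in each library. Its window held 6, 6, 5 and 7 regions of the equal-size lists in stressed 6, 7, 8 and 9, against 5, 5 and 3 in vehicle 6, 7 and 8, which is 2.41 to 3.38 per 100 kb under stress and 1.45 to 2.41 under vehicle, with 1.09 per 100 kb in the genome. The region shared by all 7 lists lay between HOXA7 and HOXA9, at chr7:27160068-27161518, and overlapped no gene. Its folds were 14.5, 12.01, 9.36 and 9.20 in stressed 6, 7, 8 and 9, against 6.03, 4.96 and 13.6 in vehicle 6, 7 and 8. Vehicle 8 lay among the stressed libraries and the other 2 vehicle libraries below them, and folds of libraries of different depth cannot be compared as levels. HOXA9, a regulator of blood progenitors, was counted only in stressed 7, whose 1451 bp wide region reached to 920 bp from the gene.

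HOXA3 had 2 recurrent regions. The first, chr7:27106147-27106978, lay 32 bp beyond the 3′ end of the gene, with folds of 17.0, 10.9, 7.71 and 5.20 in stressed 6, 7, 8 and 9, against 4.69 in vehicle 6, no region in vehicle 7 and 14.8 in vehicle 8. The other, chr7:27150634-27151490, overlapped the promoter of an alternative start that is printed above. Its folds were 11.3, 9.72 and 5.60 in stressed 6, 7 and 9 and none in stressed 8, against 7.37, 4.34 and 8.63 in vehicle 6, 7 and 8. In vehicle 8 this second region fell outside the equal-size list. Of the other HOXA genes, HOXA2 and HOXA10 had no gene-end region in any equal-size list, HOXA4 had none in the deposited lists either, and HOXA11 entered 1 equal-size list, in stressed 9 with a fold of 4.40.

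At the posterior flank of HOXA, a region without a gene 35004 bp from HOXA13, chr7:27235095-27236613, had folds of 12.3, 7.72, 6.06 and 6.00 in stressed 6, 7, 8 and 9, against 5.36 in vehicle 6, none in vehicle 7 and 16.03 in vehicle 8. The homeobox gene EVX1, next to the cluster, overlapped a region at chr7:27244922-27246960 that was in all 7 deposited lists, with folds of 5.97, 5.15, 4.96 and 4.80 in the stressed libraries, against 6.70, 6.83 and 5.34 in the vehicle libraries. It reached the equal-size lists of 2 stressed and 2 vehicle libraries.

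HOXD was the other cluster with regions at several genes, mostly from group 8 upward. HOXD8 had the widest of the equal-size lists, chr2:176128616-176131170, which covered its start, with folds of 13.2, 11.6, 3.85 and 4.80 in stressed 6, 7, 8 and 9, against 8.04 in vehicle 6, none in vehicle 7 and 9.04 in vehicle 8. The region in stressed 8 was too weak for its equal-size list. In stressed 9 the region was 470 bp wide, and in both stressed 8 and stressed 9 the start and the printed promoter were missed. HOXD9, which acts with HOXD10 in lumbar motor neurons of mice, had folds of 8.49, 9.01 and 6.40 in stressed 6, 7 and 9 and no region in stressed 8, against 4.02, 4.34 and 5.75 in vehicle 6, 7 and 8. Of these 6 regions, those of stressed 7, stressed 9 and vehicle 7 were in the equal-size lists. HOXD13, the last gene of the cluster and a regulator of digit formation, had a gene-end region at chr2:176087616-176088716 with folds of 11.01 in stressed 6 and 6.15 in stressed 7, against 10.7 in vehicle 8, and none there in the other 4 libraries, whose lists were shorter. Another region, chr2:176092567-176093532, lay 2412 bp from the nearest gene end, and so was not counted. It covered the listed start of HOXD13 in stressed 6 alone, and lay downstream of that start in the other libraries that had it. Its deposited folds were 5.66, 5.86 and 3.85 in stressed 6, 7 and 8, against 3.72 and 3.70 in vehicle 7 and 8. At equal size it was in the vehicle 7 list alone. HOXD1, at the anterior end, had folds of 4.09, 4.15 and 4.00 in stressed 6, 7 and 9, against 4.96 and 4.11 in vehicle 7 and 8, and the region of vehicle 7 alone was in an equal-size list. HOXD10 and HOXD11 likewise entered only the vehicle 7 list, through a shared region with a fold of 3.72, and HOXD3, HOXD4 and HOXD12 entered none.

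In HOXC, the gene-end regions of the equal-size lists came down to 1 interval. The region chr12:54017381-54018842 lay within HOXC4, HOXC5 and HOXC6, 493 bp downstream of the start the 3 genes share, so they count together. Its folds were 7.55, 5.43, 3.30 and 5.20 in stressed 6, 7, 8 and 9, against 5.36 in vehicle 6, none in vehicle 7 and 4.93 in vehicle 8, and it was in the equal-size lists of stressed 9 and vehicle 6. HOXC9, which sets thoracic motor neuron identity, and HOXC8, used in brachial motor neurons, had no gene-end region there, and an interval between them, chr12:54005882-54006394, had equal-size regions in stressed 6 (fold 9.75) and vehicle 7 (fold 6.83). HOXC10 was in 4 stressed lists and 1 vehicle list as deposited (folds 7.86, 4.00, 3.85 and 3.20, against 7.40 in vehicle 8), and in none at equal size. These folds came from separate intervals. The folds of stressed 6, stressed 7 and vehicle 8 were of an interval across a gene end, and those of stressed 8 and stressed 9 of others nearby. HOXC13, which acts in hair and nail formation, had deposited regions in stressed 7 and 8 (folds 3.57 and 3.30) and in no vehicle library.

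HOXB, the longest of the windows at 300.2 kb, had no gene-end region in any equal-size list. Its single region, chr17:48678195-48678823 in stressed 6, overlapped the noncoding gene LINC02086, 45940 bp from HOXB13, with a fold of 8.81, the entry value of that list. The full lists had 9, 9, 0 and 0 regions in the window in stressed 6, 7, 8 and 9, against 0, 0 and 8 in vehicle 6, 7 and 8. HOXB8 was reached in stressed 6, stressed 7 and vehicle 8 (folds 5.97 and 3.15, against 3.29), and HOXB13, which acts in the prostate, in stressed 6 and 7 (folds 4.40 and 4.00). HOXB1, which gives the facial motor nucleus its identity, had none, nor did HOXB3 to HOXB7.

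**Figure D4:**
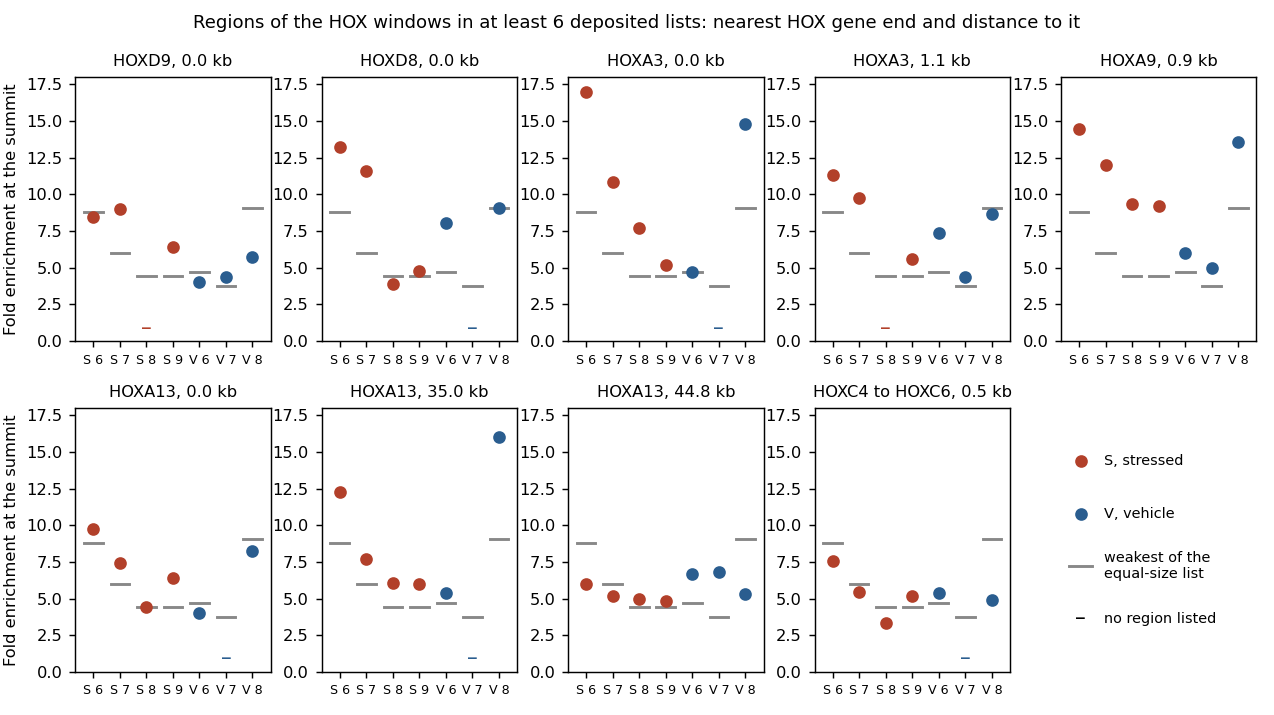
Fold enrichment at the summit in each library (S stressed, V vehicle) of the 9 regions of the HOX windows found in at least 6 deposited lists, each titled by its nearest HOX gene end and the distance to it; dots are the authors' folds, grey bars the weakest fold of that library's equal-size list, and dashes libraries without the region. At HOXA13 (0.0 kb) the 4 stressed dots lie on or above their bars and both vehicle dots below theirs, while vehicle 8 at 8.22 exceeds the folds of 3 stressed libraries.

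No steady gradient from anterior to posterior genes was seen. Of the 8 genes of groups 1 to 3, 1 had a gene-end region in each of the 7 equal-size lists, HOXA3 in 6 of them and HOXD1 in vehicle 7. The 15 genes of groups 4 to 8 had 1, 1, 0 and 4 in the stressed libraries, against 4, 0 and 1 in the vehicle libraries. The 16 genes of groups 9 to 13 had 2, 4, 1 and 3 in the stressed libraries, against 0, 3 and 1 in the vehicle libraries. The groups overlapped between conditions in each case. For groups 4 to 8, the count was HOXD8 alone in stressed 6, stressed 7 and vehicle 8. In stressed 9 and vehicle 6 it was HOXD8 and the 3 genes of the shared HOXC4 to HOXC6 region.

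The study set stressed neurons against vehicle neurons. HOXA13 was the member whose equal-size presence separated the conditions, in 4 of 4 stressed and 0 of 3 vehicle libraries. Its region, chr7:27199102-27201280, covered the start of HOXA13 and that of the noncoding gene HOTTIP, which lies beside it, so the 2 cannot be told apart. The folds were 9.75, 7.43, 4.41 and 6.40 in stressed 6, 7, 8 and 9, against 4.02 in vehicle 6, no region in vehicle 7 and 8.22 in vehicle 8. The regions of vehicle 6 and vehicle 8 were thus called, but lay below the entry folds of their lists, 4.69 and 9.04, while that of stressed 8 lay at the entry fold of 4.41. At that fold 9516 regions of stressed 8 were tied and 3547 were kept, by −log10 p, width and position, so this entry rests on the order within the tie. Fisher's exact test gave an unadjusted p of 0.0286, the smallest that 4 against 3 libraries allow, and an adjusted p of 1 over 14055 genes. The same pattern was seen in 115 genes, or 0.818% of those tested, and 0.84% had an unadjusted p below 0.05 in either direction, with none after adjustment. In the deposited lists HOXA13 was present in 4 stressed and 2 vehicle libraries (Fisher's exact p = 0.429), and no HOX gene had an unadjusted p below 0.05 there, where 0.131% of genes had one.

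No other HOX gene had an unadjusted p below 0.05. HOXA3 was present in 4 stressed and 2 vehicle libraries and HOXD8 in 3 and 2. Among the 13 HOX genes in at least 1 equal-size list, the share of libraries with a region was larger under stress for 7 and larger under vehicle for 6. That was so for 27.5% and 6.48% of the 14055 genes in at least 1 such list, of which 9284 were in all 7 and so tied. The 6 were HOXC4, HOXC5 and HOXC6, through 1 shared region in 1 stressed and 1 vehicle library, and HOXD1, HOXD10 and HOXD11, in vehicle 7 alone. With groups of 4 and 3, presence in 1 library of each makes the vehicle share larger. In the deposited lists the larger share was under stress for 28 and under vehicle for 3 of 31 HOX genes, against 35% and 5.73% of 16788 genes. No HOX gene was in all 7 equal-size lists, so an exact permutation test of region rank had no HOX gene to test. That test called 701 of 9284 other genes at an unadjusted p below 0.05 (7.55%) and none after adjustment, where limma called 1085 and also none. Of the 23 window regions, that of HOXA13 had an unadjusted p below 0.05 in Fisher's exact test (1.15% in the genome), and none had an adjusted one. In the deposited lists none of the 135 did before adjustment (0.0882% in the genome).

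At equal list size, the HOXA window was covered over a longer stretch in the stressed libraries. Its regions spanned 5.32, 8.13, 3.04 and 3.57 kb in stressed 6, 7, 8 and 9 (5.02 ± 2.30, SD, n = 4), against 1.93, 1.16 and 1.97 kb in vehicle 6, 7 and 8 (1.69 ± 0.455, SD, n = 3), and the groups did not overlap. In the deposited lists they did, with 14.1, 23.3, 3.46 and 3.57 kb under stress, against 2.41, 1.16 and 8.66 kb under vehicle, and in half-size lists the difference was 0.865 kb in place of 3.33 kb. At equal size the covered length was 2.42% of the window under stress and 0.816% under vehicle, where the genome had 1.17% and 0.762%. Region width moved with it: the median width over the whole equal-size lists was 916, 1450, 484 and 740 bp in the stressed libraries, against 475, 319 and 868 bp in the vehicle libraries, and its part in the covered length was not tested. HOXD was covered over 2.37, 8.18, 0 and 2.61 kb in stressed 6, 7, 8 and 9, against 0.872, 1.45 and 2.97 kb in vehicle 6, 7 and 8. Without stressed 7 its difference of 1.53 kb turned to -0.102 kb. HOXC had at most 0.398 kb in a stressed and 0.529 kb in a vehicle library. At equal size, HOXA was the only one of the 4 windows whose groups did not overlap in covered length. How often windows elsewhere in the genome separate like this was not tested.

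The HOX promoters listed held about as many CG dinucleotides as promoters in general. The 27 listed promoters of 20 HOX genes held a median of 22 CG dinucleotides, against 21 for 22132 promoters of 15812 genes, with an observed-to-expected CG ratio of 0.849 against 0.738 and a GC content of 58% against 62.3%. The HOXA4 promoter printed above, without a region, held 27 CG at a ratio of 1.03, close to the HOXA3 promoter with 29 CG at 1.05, and the HOXA13 promoter held 44. On either strand, CCAAT occurred in 66.7% of HOX promoters against 34.6% of all, TATAAA in 18.5% against 9.46%, GGGCGG in 48.1% against 56.3%, the PBX core TGATT in 48.1% against 30.0%, the homeodomain core TAATTA in 7.41% against 3.40%, and the nuclear receptor half-site AGGTCA in 0% against 11.9%. TGATT and the reverse of CCAAT can overlap, and 7 of the 27 promoters belong to HOXA3. The 20 genes are 9 of HOXA, 8 of HOXD, 2 of HOXC and 1 of HOXB, and HOXC4 and HOXC5 contribute the same sequence, so HOXB and HOXC are barely represented.

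In the equal-size lists, cofactor and Polycomb genes mostly had gene-end regions, and retinoic acid and CDX genes had them less often than genes in general. For comparison, the share over all protein-coding genes was 62.4% under stress and 56.1% under vehicle on average, so it too was higher under stress. Of 9 HOX cofactor genes, 8.0 ± 0.816 had a gene-end region under stress (SD, n = 4) and 8.0 ± 0 under vehicle (SD, n = 3), or 88.9% in both conditions, with PBX3, MEIS1 and MEIS2 in all 7. MEIS3 was in 1 stressed and 1 vehicle library. Of 24 Polycomb and counteracting genes, 22 ± 1.41 had one under stress (91.7%) and 20 ± 1.0 under vehicle (83.3%; SD, n = 4 and 3). EZH2, EED and SUZ12, the core of Polycomb complex PRC2, and CTCF, which binds boundaries in the clusters, were in all 7. CBX2 and CBX7, readers of the Polycomb mark, were each in 1 stressed and 0 vehicle libraries. Of 18 retinoic acid and CDX genes, which set HOX expression in the embryo, 6.75 ± 1.5 had one under stress (37.5%) and 6.0 ± 1.73 under vehicle (33.3%; SD, n = 4 and 3). RARB, a retinoic acid receptor, was in all 7 equal-size lists and CDX1, CDX2 and CDX4 in none of them. As deposited, CDX1 was in 3 stressed and 0 vehicle lists, and CDX2 and CDX4 each in 3 and 1. Of the 18 genes, 11 were in at least 1 equal-size list and 17 in at least 1 deposited list, against 70.4% and 84% of all genes.

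Several genes next to the clusters were accessible throughout. SKAP2 and HIBADH beside HOXA, MTX2 beside HOXD, and SMUG1, CBX5 and HNRNPA1 beside HOXC had a gene-end region in all 7 equal-size lists. EVX1, EVX2, SKAP1 and PRAC1 had none. Among the ParaHox genes, the relatives of HOX outside the clusters, GSX2 was in all 7 lists and GSX1 and PDX1 were in none. Of the 20 neighbouring and ParaHox genes, 11 were in all 7 equal-size lists, against 46.5% of all genes. On average 63.75% had a region under stress and 61.7% under vehicle, beside 62.4% and 56.1% of all genes.

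Markers of other positions and cell types were read alongside. Of the 11 midbrain dopaminergic markers, OTX2, which is absent from the hindbrain, EN1, NR4A2 and PITX3 had a gene-end region in all 7 equal-size lists, while LMX1B, TH and DDC had none. The count was 6.0 ± 0 under stress (SD, n = 4) and 6.0 ± 1.0 under vehicle (SD, n = 3). Of 11 hindbrain and spinal cord markers the counts were 5.5 ± 0.577 under stress and 6.0 ± 0 under vehicle (SD, n = 4 and 3), and of 7 neuronal markers 7.0 ± 0 under stress and 6.67 ± 0.577 under vehicle. Of 7 forebrain markers they were 6.5 ± 0.577 under stress (92.9%) and 5.0 ± 1.0 under vehicle (71.4%; SD, n = 4 and 3), where all genes had 62.4% and 56.1%. Of 10 mesenchyme and neural crest markers, 7, 7, 6 and 7 had one in stressed 6, 7, 8 and 9, against 5, 3 and 4 in vehicle 6, 7 and 8, which is 67.5% under stress and 40% under vehicle on average. For these markers too, the higher count under stress stands beside the higher share of all genes under stress. PDGFRB shared the 4 against 0 pattern of HOXA13 (Fisher's exact unadjusted p = 0.0286, adjusted p = 1), and COL1A1 was in 3 and 0. SOX10, TFAP2A and COL1A2 had no region in these lists. The part of these markers in the HOXA13 pattern was not tested.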

How the data were processed

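The region lists were used as deposited, 1 per library. Per the submitters' processing notes, Bowtie2, Picard, FastQC and hg38 were used. Peaks were called with MACS2 for each library separately, per the file headers. Not given in the sources used here are the caller's settings, any Tn5 offset and read totals. For each peak the authors deposited a score, a fold enrichment (ratio) and −log10 p and q values.

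The members and gene lists were chosen with earlier results of these data known. Peaks off chromosomes 1 to 22 and X were left out (29 to 54 per library), and equal-size lists kept the regions of highest fold up to the length of the shortest list, ties (1133 to 9516 regions) ordered by −log10 p, width and position. With a tolerance of 0.02, 100% of folds gave whole summit pileups, which gave the background. Gene ends came from RefSeq genes (GRCh38.p14). Presence in 4 against 3 libraries was tested by Fisher's exact test per gene and per merged region, and ranks by an exact permutation test over 35 assignments, with Benjamini-Hochberg adjustment over all features tested; limma 3.58.1 was an alternative. Counts and covered lengths over the set have no test. Every HOX gene entered the counts, some genes are not reported here by name, and other genes were named by the patterns 4 against 0 or 0 against 3 and as defining genes of their list; further named genes were chosen after their values were seen. Alternatives were full and half-size lists, a −log10 q of at least 5, other windows, summits, gene starts, overlap and leaving out libraries. Python 3.11.15, pandas 2.3.3 and scipy 1.17.1 were used, with overlaps checked on simulated data against bedtools 2.31.1.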

Additional observations from a re-analysis of the deposited data

Results flagged for a closer look

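The HOXB window stood out in stressed 6. It held 1 region covering 0.629 kb of the equal-size list of stressed 6 and none in stressed 7, 8 and 9, against none in the 3 vehicle libraries. For both the covered length and the number of regions, the gap of this library to the nearest other stressed library was the whole range of the group, a ratio of 1, above Dixon's critical value for 4 samples. Chance flags about 1 in 20 groups, and 3 tied libraries make any single region give this ratio. The region had the lowest fold in its list, 8.81. In the full lists the window held 9 regions each in stressed 6 and 7, against 8 in vehicle 8.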

How the results depend on the processing

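The difference of 1 HOX gene between stressed and vehicle libraries was 8.08 in the lists as deposited and 6.17 at a −log10 q of at least 5, and 0 to 2 when 1 library was left out. HOXA13 was the 1 HOX gene with an unadjusted p below 0.05, and its region the 1 such window region. Both counts became 0 in the lists as deposited and at a −log10 q of at least 5, the gene count also with half-size lists and the region count also with an overlap of at least 50%. Both were 0 without any 1 library, where the smallest possible exact p is 0.0667 or 0.1. The HOX genes in every library were 0, but 2 (HOXA3 and HOXA9) with a 2500 bp window and 1 (HOXA3) without vehicle 7; leaving out 1 library gave 0 to 1. The covered length differed by 3.33 kb in HOXA (7.03 as deposited, 0.865 with half-size lists), 0.157 kb in HOXB (0.764 as deposited), -0.114 kb in HOXC (4.05 as deposited) and 1.53 kb in HOXD (6.59 as deposited). Leaving out 1 library gave 2.29 to 3.98 kb in HOXA, 0 to 0.210 kb in HOXB, -0.265 to -0.00075 kb in HOXC and -0.102 to 2.63 kb in HOXD. The cause of these shifts was not tested.

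Deviations of same-numbered differentiations had correlations of -0.0234, -0.0070 and -0.154, against -0.117 to 0.155 for different numbers. With 3 pairs of libraries of unlike depth, these values cannot decide whether the numbers pair the samples. With the replicate block, the difference was 0 HOX genes (-1, 2 and -1 in the 3 pairs), 0 genes had an unadjusted p below 0.05, the smallest possible being 0.25, and HOXA, HOXB, HOXC and HOXD differed by 3.81, 0.210, -0.185 and 1.76 kb. Fragment depth limits what an unlisted gene end means, since the lowest listed summit held 5 to 14 fragments in the stressed libraries and 4 to 6 in the vehicle libraries.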

Other observations

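The windows hold 8 microRNA genes, some of which target HOX transcripts. Within 1000 bp of their ends, MIR7704 in HOXD, beside HOXD1, was the only one with a region at equal size, in 0 stressed and 1 vehicle libraries, and it was in 3 stressed and 2 vehicle lists as deposited. In the deposited lists MIR10A and MIR196A1 in HOXB and MIR615 in HOXC had none. MIR196B in HOXA was reached there in 1 stressed and 0 vehicle libraries, MIR196A2 in HOXC in 2 and 0, MIR3185 in HOXB in 2 and 0, and MIR10B in HOXD in 1 and 1. The 3 MIR196 genes lie in 3 clusters and encode 5p products with the same seed.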
